A study of Homo sapiens with 52 samples.

Results

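The replication-dependent histone genes are 69 of the 63241 genes in the count table of i3Neurons. They were taken by symbol, as the protein-coding genes named H1-1 to H1-6 or numbered in the H2AC, H2BC, H3C and H4C series. There were 6 genes of the linker histone H1, 17 of H2A, 18 of H2B, 13 of H3 and 15 of H4. In the authors' build, hg38, 55 lie in the HIST1 cluster of chromosome 6, 11 in HIST2 and 2 in HIST3 on chromosome 1, and 1 (H4C16) on chromosome 12. i3Neurons are human neurons made from the induced pluripotent stem cell line WTC11 by a neurogenin transgene that doxycycline switches on. They were replated on day 3 after induction onto inserts with pores of 1 µm, which let neurites but not cell bodies through, and both sides were harvested on day 17 as a soma and a neurite fraction. All cells were of the same line and all were induced in this way.

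The 10 groups were formed by fraction and by experiment. Untreated cells without a guide RNA gave 4 soma and 4 neurite libraries. CRISPR interference (CRISPRi, repression of a gene by a catalytically inactive Cas9 at its start) was aimed at hnRNPA1 in a second experiment, with 6 knockdown and 6 non-targeting guide libraries per fraction. In the third experiment it was aimed at TDP-43, the product of TARDBP, with 5 non-targeting control libraries per fraction, 5 knockdown neurite libraries and 4 usable knockdown soma libraries. No label says that the numbered samples of a group were separate cultures, so each p-value covers only how far these libraries vary, and that variation may be technical. The total RNA kit was version 2 for untreated cells and version 3 for both knockdown experiments, so kit and experiment cannot be told apart. Levels were normalised within each experiment.

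Most messenger RNAs end in a poly(A) tail, but the messages of these genes end in a short stem-loop that the stem-loop binding protein SLBP holds. The U7 small nuclear ribonucleoprotein, with its own subunits LSM10 and LSM11, guides the cut after the stem-loop, and the coactivator NPAT drives transcription of the genes. The proteins package newly made DNA, so the messages are best known from S phase, whereas neurons no longer divide; some of the genes are also known to give longer, polyadenylated messages. Total RNA kits can capture both forms. The stem-loop was searched for after the stop codon of the annotated transcripts of GENCODE release 29, and 31 members held one, against 0.46% of the other coding genes with sequence there. Only 35 of the 69 members have any sequence annotated after the stop, so most members without a match could not have held one. The 6 forms are shown because they are what sets these messages apart from other coding RNAs. Capitals mark the 4-base loop, and the 6 bases on each side pair with each other.
H2AC8 (also most other H2A, H2B and H3 matches): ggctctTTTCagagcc
H2BC5, H2BC4, H2BC7 and H3C8: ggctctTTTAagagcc
H2AC11: ggctctTTTCagggcc
H3C6: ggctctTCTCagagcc
H4C2, H4C5, H4C8, H4C11 and H4C16: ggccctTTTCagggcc
H4C9, H4C14 and H4C15: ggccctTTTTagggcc

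The stem was of 1 form in the H4 matches and of another in nearly all H2A, H2B and H3 matches. The promoters were read from RefSeq (GRCh38.p14, the 250 bases before the first listed start), where 64 of the 69 members were found. TATAAA was present on either strand in 42 (65.6%), against 11.1% of all 27305 promoters. CCAAT was in 54 members (84.4%, against 33.0% of all promoters), including every H1, H2A, H2B and H3 promoter found but 3 of 13 H4 promoters (23.1%). The octamer ATTTGCAT was in 26 members (40.6%, against 1.66% of all promoters). It was in 14 of 18 H2B and 11 of 16 H2A promoters, in 1 of 11 H3 promoters and in 0 H1 or H4 promoters. The promoters below belong to H1-2 and H4C2, lower after TDP-43 knockdown in both fractions, and to H2BC11, the member with the largest rise after hnRNPA1 knockdown in neurites. Capitals mark these 3 motifs on either strand, and matches that overlap run together. The H2BC11 window covers nearly the same bases as that of H2AC11 on the other strand.
H1-2, chr6:26056471-26056720, minus strand: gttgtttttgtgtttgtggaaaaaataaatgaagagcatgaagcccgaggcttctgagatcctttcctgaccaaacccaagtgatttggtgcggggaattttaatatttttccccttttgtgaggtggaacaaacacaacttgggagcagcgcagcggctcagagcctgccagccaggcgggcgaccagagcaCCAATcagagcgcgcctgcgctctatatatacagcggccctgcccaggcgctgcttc
H4C2, chr6:26027284-26027533, minus strand: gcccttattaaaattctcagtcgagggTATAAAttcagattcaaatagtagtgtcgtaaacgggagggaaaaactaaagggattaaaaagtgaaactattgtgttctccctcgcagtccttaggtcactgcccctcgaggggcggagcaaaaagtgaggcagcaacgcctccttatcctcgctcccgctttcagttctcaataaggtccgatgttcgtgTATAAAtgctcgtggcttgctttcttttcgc
H2BC11, chr6:27132796-27133045, minus strand: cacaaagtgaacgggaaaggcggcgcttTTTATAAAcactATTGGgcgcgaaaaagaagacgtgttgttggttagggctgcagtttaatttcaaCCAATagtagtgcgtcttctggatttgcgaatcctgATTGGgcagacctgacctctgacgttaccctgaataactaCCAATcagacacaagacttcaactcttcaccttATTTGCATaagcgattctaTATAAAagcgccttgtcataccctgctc

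H1-2 held only CCAAT, H4C2 only TATAAA, and H2BC11 all 3 motifs. A match is a description of the letters and not a measured site.

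Of the 52 libraries 51 were used, since a total of 541 counts left out TDP-43 knockdown soma sample 5. The others held 2.54 to 28.9 counts each in units of 1000000. The targeted genes followed the labels. HNRNPA1 was at 328 to 377 CPM (counts per 1000000, scaled by the trimmed mean of M values) in control soma and 124 to 151 in knockdown soma, and at 546 to 620 and 181 to 222 in neurites. TARDBP was at 106 to 117 CPM in control soma and 18.6 to 20.5 in knockdown soma, and at 108 to 125 and 36.7 to 48.4 in neurites. The share of counts from the 7SL RNA genes, another RNA without a poly(A) tail, differed between libraries. It averaged 2.09% in TDP-43 control soma and 2.35% in knockdown soma, but 27.4% (17.2 to 45.7) in control neurites and 14.4% (5.65 to 31.7) in knockdown neurites. In the hnRNPA1 experiment it was 2.29% in control soma, 3.02% in knockdown soma, 10.4% in control neurites and 14.1% in knockdown neurites. Values beside which this share moves are given below also from a fit with its log2 as a covariate, an alternative added after the data were seen. Within each experiment every neurite library had a higher share than every soma library. Between fractions that fit therefore cannot separate fraction from share. In bulk RNA, fewer cells of a type and less RNA per cell cannot be told apart.

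Members made up 0.0265% (untreated neurites) to 0.141% (hnRNPA1 knockdown soma) of the counts on average. By mean CPM over all 51 libraries H1-4 and H2AC8 came first, but in untreated soma H2BC5 did (37.5 CPM, before 32.79 of H1-4 and 19.86 of H2AC8). Their sum was 945.7 ± 130 CPM in TDP-43 control soma (SD, n = 5) and 1142 ± 175 in hnRNPA1 control soma (n = 6). It was 360 ± 26.1 in untreated soma (n = 4), made with the other kit version. Per kilobase of annotated exon, over all 51 libraries, H2AC8 came first among members at 274.2 CPM per kb, before H1-4 at 185.5, H2AC20 at 158.3 and H4C11 at 155.2. H2BC5 came first among H2B genes, at 51.39 CPM per kb. Levels of H3 genes were low, with H3C7 first at 7.338 CPM per kb and H3C6 at 4.478. The exon length counts longer annotated forms too, so a gene such as H3C6 is divided by more bases than its stem-loop message has. H1-4 and H2AC8 together gave 27.5% of the members' mean CPM and the first 6 genes gave 53.1%. All members had at least 1 count in some library, but H3C4 had counts in only 3 libraries and H2AC7 in 8. Of the 69, 14 passed the filter in none of the 3 experiments fitted singly (H1-1, H1-6, H2AC1, H2AC7, H2AC17, H2BC1, H2BC3, H2BC4, H3C3, H3C4, H3C8, H4C6, H4C7 and H4C13), 55 passed it in each knockdown experiment and 29 in untreated cells. Joint fits over 2 experiments or more also tested H3C8 (both knockdowns) or H4C6 (untreated and control libraries). Reads cannot be placed firmly between H2AC18 and H2AC19, H3C14 and H3C15, H4C14 and H4C15, H4C11 and H4C12, or H2AC13 and H2AC14, whose sequences are near-identical, so values of these 10 genes are uncertain.

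**Figure D1:**
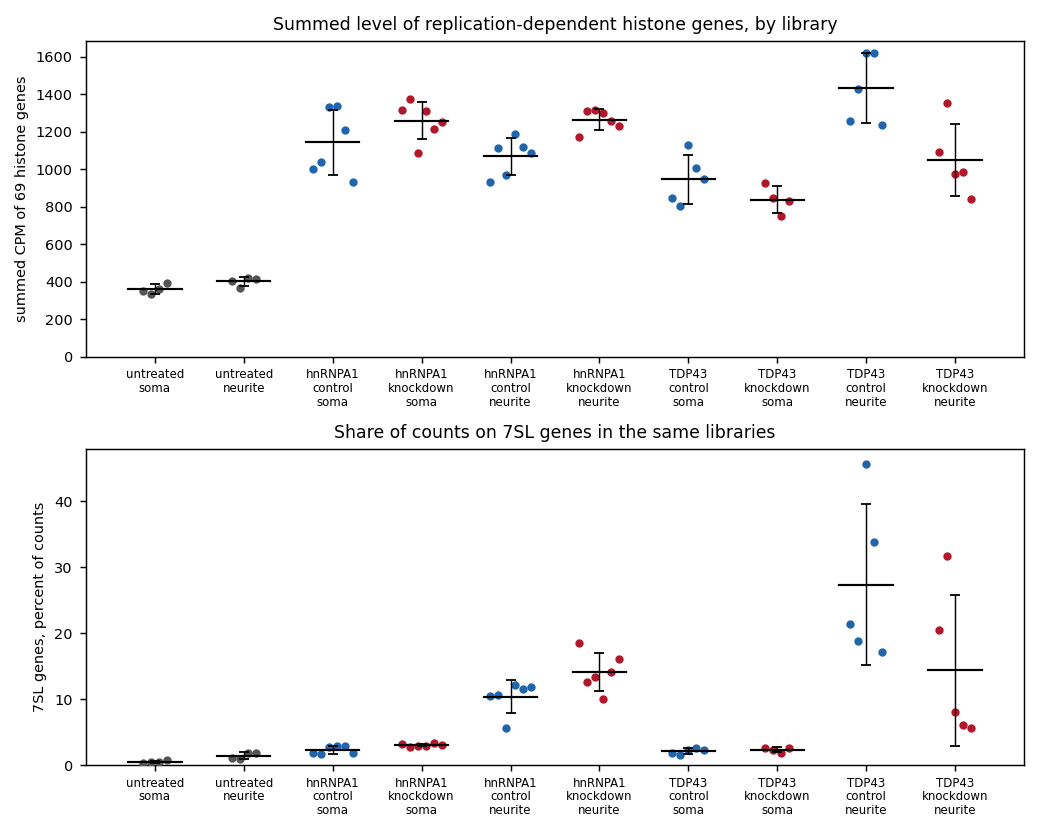
Summed level of the 69 members in each library (CPM, linear axis from 0) by group; points are libraries and bars the group mean with its SD. Untreated libraries sit near 360 to 402 CPM on average, below both knockdown experiments, which were made with another kit version, and TDP-43 control neurites average 1431.

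Neurites were compared with soma within each experiment, which asks where in the neuron the messages are found. In untreated cells 8 of 29 tested members were higher in neurites and 6 lower by edgeR's quasi-likelihood test (Benjamini-Hochberg adjusted p under 0.05), while 28.7% of all 18556 tested genes were called higher and 27.8% lower. These shares, 27.6% and 20.7% of the tested members, were near or under the background. H2A genes stood among the higher ones, with 4 of 7 higher and 0 lower. H2AC8, a core H2A gene, was at 55.65, 46.34, 61.88 and 49.42 CPM in neurites and 17.78, 17.11, 21.52 and 23.01 in soma. Every neurite library was above every soma library, and the log2 difference was 1.45 ± 0.13 (SE; edgeR adjusted p 2.8e-09). H4C2, a core H4 gene, was at 9.274, 5.636, 7.452 and 13.15 CPM in neurites against 2.857, 2.966, 3.015 and 3.034 in soma, also without overlap (1.599 ± 0.27, edgeR adjusted p 4.4e-05). The linker histone gene H1-4 went the other way, at 14.22, 8.14, 21.38 and 15.94 CPM in neurites and 28.63, 30.65, 36.35 and 35.53 in soma. Here every neurite library was below every soma library (-1.05 ± 0.18, edgeR adjusted p 3.5e-05). H2BC12 (1.47) and H2AC21 (1.124) were the other members most raised in neurites, and H3C6 (-0.77), H4C3 (-0.76) and H4C16 (-0.72) the others most lowered. The count of lower members was 2 without untreated neurite sample 4 or 7 and 3 without soma sample 4. With plain library sizes the median of all genes moved from -0.21 to -1.40, and 0 members were higher and 24 lower, against 11.4% and 79.8% of all genes. With the 7SL share as a covariate (0.492% in soma and 1.42% in neurites) 2 members were higher and 5 lower, against 21.2% and 13% of all genes. The share ran from 0.38% to 0.715% in soma and from 0.855% to 1.87% in neurites, so this fit cannot separate fraction from share.

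In the hnRNPA1 controls 18 of 55 tested members were lower in neurites and 5 higher, against 24.9% of all genes lower and 23.5% higher. The members' shares were 32.7% and 9.09%. All 4 tested H1 genes were lower, as were 6 of 10 H3 and 6 of 12 H4 genes, but 1 of 14 H2A and 1 of 15 H2B genes. H1-5 fell by 1.62 on the log2 scale (SE 0.30, edgeR adjusted p 3e-05), from 1.609, 1.931 and 2.784 CPM (lowest, median, highest) in soma to 0.1355, 0.6898 and 1.187 in neurites. These ranges did not overlap. H3C2 (-1.61), H3C12 (-0.80) and H4C11 (-0.76) fell most after it, though H3C2 averaged only 1.687 CPM in soma and 0.5339 in neurites. H2BC14 (0.57), H2BC12 (0.28), H2AC8 (0.27) and H2AC20 (0.26) were higher by the same test, but H2BC12, H2AC8 and H2AC20 were below 0 with plain library sizes, under which the median of all genes moved from -0.05 to -0.40. Then 0 members were higher and 36 lower, against 9.68% and 61% of all genes. With the 7SL covariate 0 were higher and 15 lower, against 8.29% and 10.4% of all genes. The 7SL share ran from 1.61% to 2.83% in soma and from 5.55% to 12.2% in neurites, so here too fraction and share cannot be separated. The count of 5 higher members ranged from 2 to 9 when 1 library was left out: it was 2 without control soma 3 or 5 or control neurite 2 or 4, 3 without control soma 2 or 4 or control neurite 1 or 5, and 9 without control soma 1. The H2A share of the members' own counts, which does not depend on the scaling between libraries, was 31.52% ± 0.682 in soma and 36.93% ± 0.415 in neurites (SD, n = 6), and the H1 share 17.24% ± 1.03 and 14.24% ± 0.431.

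In the TDP-43 controls 35 of 55 tested members were higher in neurites and 0 lower by edgeR, against 24.1% of all genes higher and 22.4% lower. Of the lower ones 0 had an unadjusted p under 0.05, and DESeq2 called 0. H2A genes were higher in 13 of 14 cases, H2B in 13 of 15, H4 in 7 of 12, H3 in 2 of 10 and H1 in 0 of 4. H2AC8 was at 200.4, 239.6, 209.5, 241.3 and 204 CPM in control neurites and 92.65, 138.3, 115.1, 111.4 and 95.74 in control soma. Its groups did not overlap, and it was 0.99 ± 0.09 higher on the log2 scale (edgeR adjusted p 9.7e-10). H2AC16 (1.41), H3C10 (1.2), H2BC10 (1.195) and H2AC20 (1.178) differed most. Of these, H2AC16 averaged only 0.3371 CPM in control soma and 0.8858 in control neurites. H2BC10 averaged 0.4798 and 1.099 CPM, H3C10 1.114 and 2.64, and H2AC20 47.87 and 108.9. Every neurite library lay above every soma library for 22 of the 55 tested members, and for 16.5% of all genes. The 7SL share, 2.09% in soma and 27.4% in neurites, moved with this difference, and with it as a covariate 1 member was higher and 10 were lower, against 10.3% and 6.18% of all genes. Since the share ran from 1.51% to 2.56% in soma and from 17.2% to 45.7% in neurites, that fit cannot separate fraction from share. With plain library sizes 8 were higher and 15 lower, against 8.6% and 66% of all genes, and the median of all genes was -0.63 and that of the members -0.12. The H2A share of the members' counts was 30.2% ± 0.505 in soma and 38.35% ± 0.753 in neurites (SD, n = 5), and the H1 share 18.14% ± 0.535 and 12.84% ± 0.899. Neither range overlapped between the fractions.

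**Figure D2:**
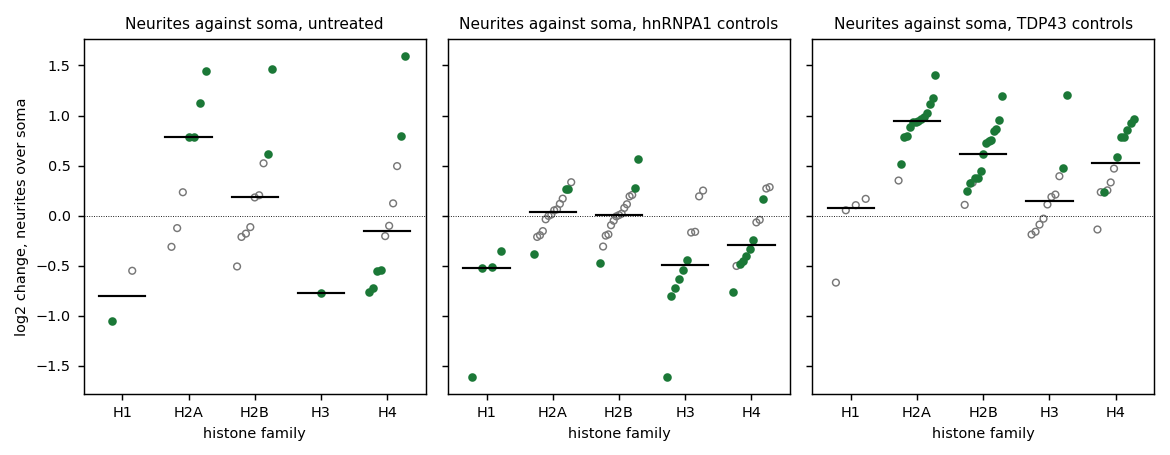
Log2 change of neurites over soma (vertical axis) for each tested member by histone family in untreated cells, hnRNPA1 controls and TDP-43 controls; filled points passed the edgeR test, open points did not, and lines are family medians. The family median is highest for H2A (0.78, 0.03 and 0.94) and lowest for H1 (-0.80, -0.52 and 0.08) in the 3 panels, in that order. In untreated cells H1 rests on 2 tested genes and H3 (-0.77) on 1. In hnRNPA1 controls H2B (0.01) lies near H2A, and H3 (-0.49) near H1.

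Knockdown of TDP-43, an RNA-binding protein whose loss from the nucleus marks motor neuron disease, was compared with its controls in each fraction. In soma 15 of 55 tested members were lower and 1 higher, against 9.53% of all 22014 genes lower and 9.42% higher. The members' share of lower calls was 27.3%, and their median change was -0.16 against 0.02 for all genes. The lower members held 1 of 4 H1, 3 of 14 H2A, 3 of 15 H2B, 4 of 10 H3 and 4 of 12 H4 genes. By position, 6 of the 11 HIST2 genes and 7 of the 41 tested HIST1 genes were lower, a difference that was not tested. H4C2 (-0.77), H3C12 (-0.70), H2BC11 (-0.67) and H2AC14 (-0.65) fell most, and H4C8 rose by 0.36 ± 0.13 (edgeR adjusted p 0.047). In 11 of the 55 members (and 10.7% of all genes) every knockdown soma library lay below every control soma library. The 7SL share was 2.09% in control and 2.35% in knockdown soma, and with it as a covariate 21 members were lower, among them all 15, and 0 higher, against 10.2% and 10.1% of all genes. With plain library sizes 9 were lower and 0 higher, against 4.1% and 3.53% of all genes. The count was 6 without knockdown soma sample 3 and 7 without control soma sample 2.

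In neurites 32 of 55 tested members were lower after TDP-43 knockdown and 0 higher, against 10.9% of all genes lower and 14% higher. Of the higher ones 2 had an unadjusted p under 0.05, and DESeq2 called 0. The members' median change was -0.48 against -0.03 for all genes. Every knockdown neurite library lay below every control neurite library for only 8 of the 55 members, and for 4.97% of all genes. Lower were 2 of 4 H1, 10 of 14 H2A, 7 of 15 H2B, 5 of 10 H3 and 8 of 12 H4 genes. H3C2 (-1.63), H4C3 (-1.13), H4C11 (-1.08) and H1-2 (-1.03) fell most, though H3C2 had only 0 to 13 counts in a neurite library. H4C11, an H4 gene that cannot be told firmly from H4C12, was at 71.7, 78.69, 162, 125 and 81.2 CPM in control neurites and 56.72, 100.8, 34.95, 39.05 and 22.12 in knockdown neurites. Knockdown neurite sample 2, at 100.8, overlapped the controls, and the change was -1.08 ± 0.28 (edgeR adjusted p 0.0046). Members with fewer than 200 annotated bases after the stop were lower in 22 of 32 cases (median -0.58), and those with more in 10 of 23 (median -0.35), a difference that was not tested. Among the latter, H2BC5, an H2B gene with annotated forms that run past the stem-loop, was at 41.25 to 48.54 CPM in the 5 control neurite libraries and at 49.44, 60.25, 47.56, 55.43 and 44.79 in knockdown neurites. Its groups overlapped and its change was 0.21 (edgeR adjusted p 0.057).

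The 7SL share moved with the neurite result too, at 27.4% in control and 14.4% in knockdown neurites. Knockdown neurite sample 2, which had the highest share among knockdown neurites (31.7%), also had the highest member sum, 1354 CPM against 840.2 to 1093 in the other 4. With the share as a covariate 3 members were lower, 5.45% of those tested and near the 5.75% of all genes, and 0 higher against 9.49%, and the members' median was -0.24. With plain library sizes 19 were lower and 0 higher, against 3.58% and 8.16% of all genes. The count of 32 was 17 without knockdown neurite sample 5, 18 without control neurite sample 5 and 21 without knockdown neurite sample 4.

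The 3 members lower with the covariate in neurites were H1-2, H4C2 and H4C3, named here after their values were seen. H1-2 encodes a linker histone and lies at chr6:26055787-26056428 on the minus strand. It was at 8.918, 10.61, 11.49, 9.649 and 11.3 CPM in control soma and 7, 7.079, 5.745 and 7.398 in knockdown soma. In neurites it was at 9.172, 11.01, 13.21, 12.22 and 9.332 CPM in controls and 5.616, 5.798, 3.54, 5.573 and 5.432 after knockdown. Every knockdown library was below every control library of its fraction. The fall was 0.60 ± 0.11 in soma (edgeR adjusted p 0.00012) and 1.03 ± 0.13 in neurites (1.6e-06) on the log2 scale.

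H4C2 encodes a core H4 histone and lies at chr6:26026815-26027252 on the minus strand. Its control soma values were 4.141, 5.546, 4.673, 4.283 and 4.316 CPM, and its knockdown soma values 3.27, 2.791, 2 and 2.71. In neurites the controls were at 9.529, 9.813, 9.226, 10.09 and 6.221 CPM and the knockdown at 5.446, 4.399, 4.184, 6.175 and 4.015. Again no groups overlapped, though the lowest control neurite library (6.221) lay just above the highest knockdown one (6.175). The edgeR changes were -0.77 ± 0.15 in soma (adjusted p 0.00037) and -0.85 ± 0.16 in neurites (adjusted p 0.00017).

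H4C3, another H4 gene, lies at chr6:26103876-26104310 on the plus strand. It was at 27.47, 41.17, 39.08, 32.87 and 27.17 CPM in control soma against 24.35, 20.89, 19.96 and 21.14 after knockdown. In neurites it was at 38.87, 40.95, 43.78, 41.34 and 35.13 CPM against 21.87, 32.99, 17.54, 14.01 and 10.79. The groups did not overlap in either fraction, and the edgeR changes were -0.64 ± 0.16 (adjusted p 0.0037) and -1.13 ± 0.17 (adjusted p 1.8e-05). With the 7SL covariate the neurite changes of H1-2, H4C2 and H4C3 were -0.81, -0.71 and -0.64 (edgeR adjusted p 0.00057, 0.012 and 0.00044), and the soma changes -0.64, -0.79 and -0.71 (2e-05, 0.00022 and 8e-07). All 3 were called lower in both fractions under each of the 26 alternatives run. These alternatives include the covariate fit by which the 3 were picked, and all refit the same libraries, so they are no independent support. H1-2 and H4C2 had whole-number counts in every library, so no read of theirs was divided between genes in the deposited table.

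**Figure D3:**
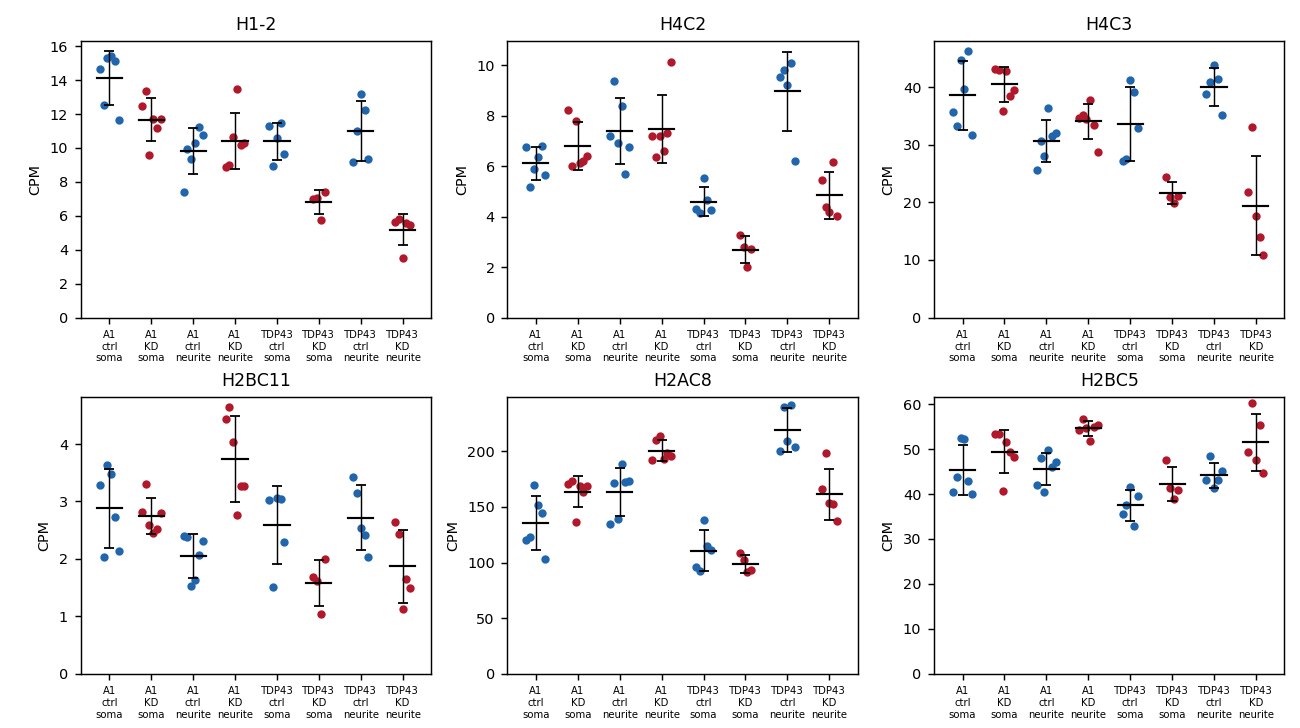
CPM (linear axes from 0) of 6 members in each library of both knockdown experiments; blue points are control and red points knockdown libraries, with group mean and SD. H1-2, H4C2 and H4C3 lie lower in TDP-43 knockdown libraries of both fractions, H2BC11 lies higher in hnRNPA1 knockdown neurites, and H2BC5 overlaps between TDP-43 groups.

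**Figure D4:**
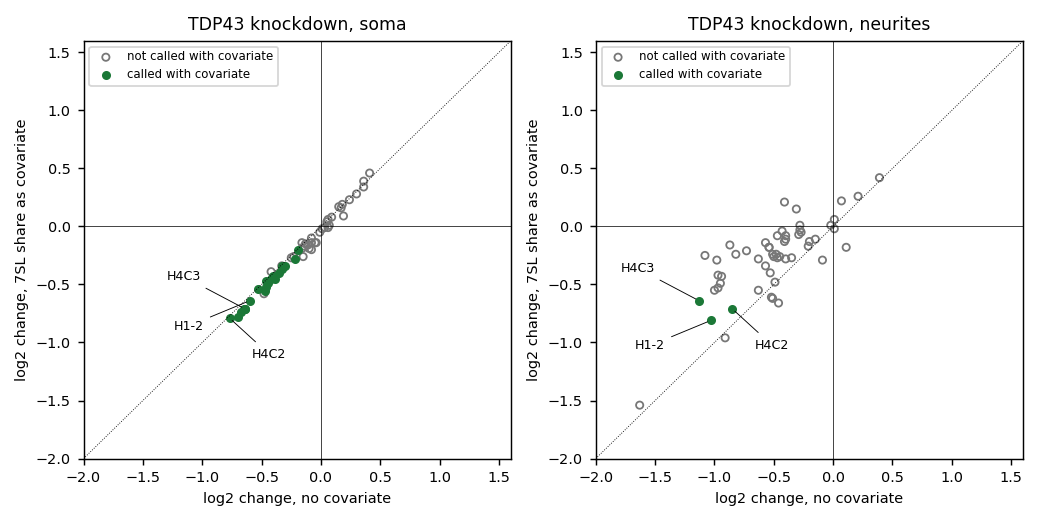
Log2 change after TDP-43 knockdown of each tested member without (horizontal) and with (vertical) the 7SL share as a covariate, for soma and neurites; filled points passed the edgeR test with the covariate and the dotted line marks equal values. Soma points keep to the line, while most neurite points lie nearer 0 with the covariate and 3 remain called.

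The soma and neurite results of TDP-43 knockdown shared 10 members (H1-2, H2AC14, H2AC18, H2AC19, H2BC18, H3C1, H3C12, H4C2, H4C3 and H4C16), which is 66.7% of the 15 and 31.2% of the 32. Of all tested members 58.2% were lower in neurites, near the first of these shares. Over all genes those lower in both fractions were 36.9% of the lower in soma and 32.4% of the lower in neurites. The difference between the 2 changes was tested as an interaction, which called 1 member higher and 1 lower against 5.83% and 4.66% of all genes. H3C15, uncertain against H3C14, moved from -0.53 in soma to 0.40 in neurites, the latter not called (adjusted p 0.14), and the difference was 0.93 ± 0.25 (edgeR adjusted p 0.019). H4C8 differed the other way, by -0.71 ± 0.20 (edgeR adjusted p 0.02). The count of lower members was 6 without knockdown neurite sample 2, 3 without control neurite sample 1 and 2 without knockdown soma sample 3. With the 7SL covariate edgeR called 0 in either direction, against 3.1% of all genes higher and 2.17% lower.

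Knockdown of hnRNPA1, an RNA-binding protein that acts in splicing and RNA transport, went with higher levels of some members and no lower ones by edgeR. In soma 7 of 55 tested members were higher and 0 lower (1 at an unadjusted p under 0.05, 0 by DESeq2), against 3.79% of all 19812 genes higher and 3.3% lower. They were H2AC4 (0.58), H4C9 (0.48), H3C7 (0.42), H4C12 (0.36), H2BC7 (0.34), H2BC8 (0.30) and H2AC8 (0.28). H4C9, an H4 gene, was at 8.349, 10.77 and 15.95 CPM (lowest, median, highest) in control soma and 12.84, 16.65 and 16.84 in knockdown soma. These ranges overlapped, as they did for all 55 tested members, a count for which the share over all genes is not given. The change of H4C9 was 0.48 ± 0.11 (edgeR adjusted p 0.006). When 1 library was left out the count was 1 without control soma 3 or 4 or knockdown soma 1, 2 without control soma 5 or knockdown soma 2 or 4, and 4 without knockdown soma 5. With the 7SL covariate it was 0, and 0 were lower, against 1.57% and 1.79% of all genes, and with plain library sizes 3 were higher and 1 lower, against 2.5% and 3.73%. The 7SL share ran from 1.61% to 2.83% in control and from 2.75% to 3.29% in knockdown soma. The covariate fit can therefore hardly separate knockdown from share here.

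In neurites 14 of 55 tested members were higher after hnRNPA1 knockdown and 0 lower (0 at an unadjusted p under 0.05, 0 by DESeq2), against 8.95% of all genes higher and 7.21% lower. The members' share of higher calls was 25.5% and their median change 0.27. All 14 lay in HIST1 (of 41 tested there), and 0 of the 11 HIST2 genes was called; the difference between the clusters was not tested. H2BC11, an H2B gene at chr6:27125897-27132750 on the minus strand, was at 1.523, 2.189 and 2.404 CPM (lowest, median, highest) in control neurites and 2.762, 3.648 and 4.641 in knockdown neurites. Its ranges did not overlap, and it rose by 0.88 ± 0.19 (edgeR adjusted p 0.0015). H4C12, uncertain against H4C11, was at 21.58, 29.11 and 34.06 CPM in control and 38.28, 43.45 and 47.59 in knockdown neurites. It too was without overlap, and rose by 0.66 ± 0.12 (edgeR adjusted p 0.00016). Every knockdown neurite library lay above every control neurite library for only 7 of the 55 tested members, and 48 overlapped. The share over all genes is not given for this count.

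The abundant H1-4 was at 116.5, 143.8 and 153.7 CPM in control neurites and 155.5, 187.5 and 211.9 in knockdown neurites, where every library was above every control (0.41 ± 0.09, edgeR adjusted p 0.00099). H2AC8 was at 135, 172 and 188.5 CPM in control and 192.3, 196.8 and 213.9 in knockdown neurites, again without overlap (0.30 ± 0.09, edgeR adjusted p 0.018). H3C10 (0.76) and H3C11 (0.66) were the raised H3 genes. With the 7SL share as a covariate 4 of the 14 were called (H1-4, H2AC15, H2BC11 and H4C12) and 0 members were lower, against 3.47% and 4.7% of all genes. The share ran from 5.55% to 12.2% in control and from 10.07% to 18.5% in knockdown neurites. Here too the covariate fit can hardly separate knockdown from share. The 393 annotated bases of H2AC15 all lie opposite H2BC15, and the strand setting is not known. With plain library sizes 8 were higher and 1 lower, against 3.1% and 19.2% of all genes. The count of 14 was 9 without control neurite sample 1 or 3. The soma and neurite results shared 4 members (H2AC8, H2BC8, H4C9 and H4C12), 57.1% of the 7 and 28.6% of the 14, against 51.9% and 22% over all genes called. The interaction of hnRNPA1 knockdown and fraction called 0 members by edgeR, with 6 at an unadjusted p under 0.05 and 0 by DESeq2, against 0.0454% of all genes called higher and 0.131% lower.

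**Figure D5:**
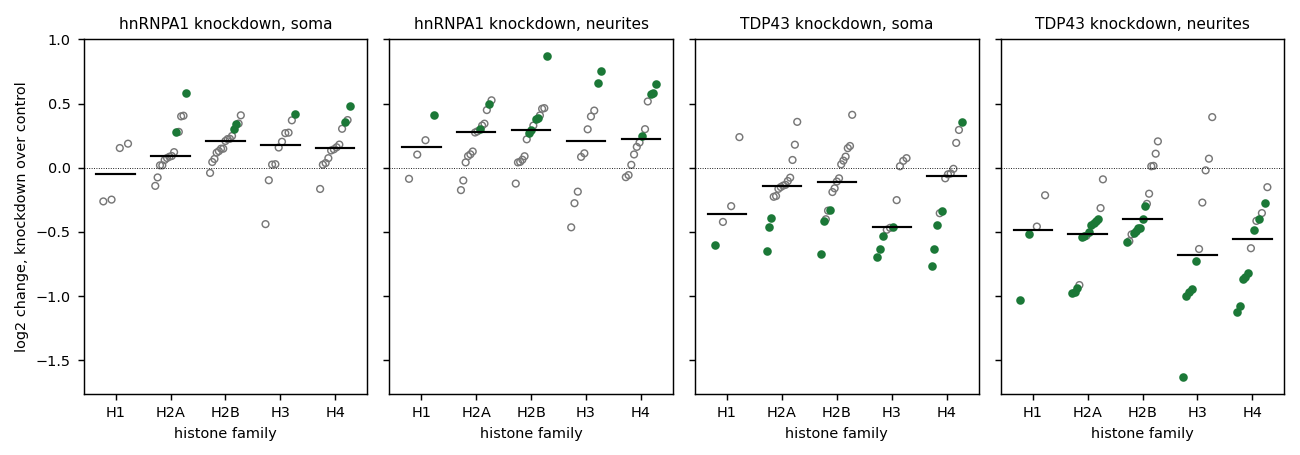
Log2 change of knockdown over control (vertical axis) for each tested member by histone family, in soma and neurites of both experiments; filled points passed the edgeR test and lines are family medians. Filled points lie above 0 after hnRNPA1 knockdown and, but for H4C8 in soma, below 0 after TDP-43 knockdown.

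The difference between the knockdown effects was tested in 1 fit of both experiments, which used different control libraries. In soma 12 of 56 members were lower after TDP-43 than after hnRNPA1 knockdown, relative to their own controls, and 0 higher, against 6.12% and 6.59% of all genes. H2AC14 (-1.05), H4C2 (-0.91), H3C1 (-0.90) and H3C7 (-0.88) differed most. In neurites 29 of 56 were lower and 0 higher, against 6.37% and 10.5%, led by H4C11 (-1.64), H3C10 (-1.47), H4C12 (-1.46) and H2AC4 (-1.45). With the 7SL covariate the lower members were 12 in soma, against 6.17% of all genes, and 4 in neurites, against 2.99%, and 0 were higher in either, against 6.41% and 7.51%. The soma count was 3, 6, 5 and 6 without the libraries numbered 2, 3, 4 and 5, and 20 without those numbered 1, and the neurite count 16 without those numbered 5. In neurites 8 members were higher after hnRNPA1 and lower after TDP-43 knockdown (H1-4, H2AC8, H2BC8, H2BC12, H3C10, H4C5, H4C11 and H4C12), 57.1% of the 14 and 25% of the 32. The first share is about the 58.2% of all tested members that were lower after TDP-43 knockdown in neurites. Over all genes the shares were 9.21% and 7.1%.

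The neurite to soma ratio was also compared between untreated cells and each set of controls, where kit and guide cannot be told apart. Against hnRNPA1 controls 8 of 55 members had a higher ratio in untreated cells and 7 a lower one, against 13.1% and 23.9% of all genes. The higher ones include H3C2, H3C7 and H1-5, which had 0 to 7 counts in each untreated library and did not pass the filter there. Against TDP-43 controls 1 was higher and 16 lower, against 13.5% and 24% of all genes. With the 7SL covariate 6 were higher and 6 lower there, against 12.5% and 16.1%. Without it, H1-4 was among the lower ones against both sets of controls (-0.96 and -1.33). The median of all genes was itself -0.41 against hnRNPA1 and -0.48 against TDP-43 controls, and that of the members 0.05 and -0.59.

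Of the histone genes expressed also outside S phase, which can give polyadenylated messages, 11 were tested, and 2 rose and 2 fell after TDP-43 knockdown in soma, and likewise in neurites. H2AJ fell by 1.3 ± 0.11 in soma and by 0.35 ± 0.11 in neurites (edgeR adjusted p 3.6e-10 and 0.018). H3-3B, of the replacement histone H3.3, fell by 0.23 and 0.22 on the log2 scale. The genes of this list that rose after TDP-43 knockdown are not named here. After hnRNPA1 knockdown 1 rose (H3-5) and 1 fell in soma, and 1 rose (H2AX) and 0 fell in neurites. Over all genes 9.42% rose and 9.53% fell after TDP-43 knockdown in soma, and 14% and 10.9% in neurites. After hnRNPA1 knockdown 3.79% rose and 3.3% fell in soma, and 8.95% and 7.21% in neurites. These shares apply also to the lists that follow.

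Among 35 genes of histone message processing, 4 rose and 2 fell after TDP-43 knockdown in soma, and 3 rose and 2 fell in neurites. Those that rose are not named here. The U7 subunit LSM11 fell by 0.59 ± 0.07 in soma and by 0.26 ± 0.07 in neurites (edgeR adjusted p 3.6e-07 and 0.0091), and ZNF473, of the same complex, by 0.25 in soma (edgeR adjusted p 0.028). SLBP was at -0.07 and 0.02, LSM10 at -0.11 and -0.16 and NPAT at 0.14 and -0.05, none called. After hnRNPA1 knockdown 1 gene rose in soma, and 4 rose and 5 fell in neurites. There NPAT fell by 0.34 ± 0.09 (edgeR adjusted p 0.0083), while SLBP (0.10), LSM10 (0.23) and LSM11 (-0.13) were not called.

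Genes of S phase and of mitosis, which mark dividing cells, were given the same counts. Of 41 S-phase genes 2 rose and 2 fell after TDP-43 knockdown in soma, and 3 rose and 0 fell in neurites. Of 37 in the hnRNPA1 experiment 0 were called in soma and 3 rose in neurites (FEN1, MCM2 and MCM3). Of 22 mitotic genes 1 rose and 1 fell after TDP-43 knockdown in soma and 0 were called in neurites. Of 19 in the hnRNPA1 experiment 1 fell and 0 rose after knockdown in soma, and 0 were called in neurites. The summed level of all 30 listed mitotic genes was 61.28 to 73.96 CPM in TDP-43 control neurites and 58.2 to 69.82 in knockdown neurites. Of these 30, 11 had a mean under 1 CPM. MKI67, a marker of cycling cells, was at 0.23 and -0.05 after TDP-43 knockdown and 0.46 and 0.39 after hnRNPA1 knockdown, none called (edgeR adjusted p 0.44, 0.9, 0.074 and 0.069). Between fractions, 18 of the 22 mitotic genes were higher in TDP-43 control neurites and 0 lower, where members were mostly higher. In hnRNPA1 control neurites, where more members were lower than higher, 13 of 19 were higher and 0 lower, and in untreated neurites 11 of 23 were higher and 2 lower. Over all genes 24.1% were higher and 22.4% lower in TDP-43 control neurites. The shares were 23.5% and 24.9% in hnRNPA1 control neurites and 28.7% and 27.8% in untreated ones. The part of the mitotic genes in the members' difference was not tested.

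Other RNAs without a poly(A) tail were counted too. Of 11 tested, 5 fell after TDP-43 knockdown in neurites (SNORD3A at -1.97 on the log2 scale, RNU4-2 at -1.156, RNY1 at -1.06, RNU4-1 at -1.03 and RNU1-1 at -0.90) and 0 changed in soma. After hnRNPA1 knockdown 6 of 10 rose in soma and 5 of 10 in neurites, RMRP by 0.83 among them. Their part in the members' changes was not tested beyond the 7SL covariate.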

How the data were processed

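The deposited table holds estimated counts per gene and library, made by the authors. The submitters' processing notes, part of the labels, name STAR 2.7.11b, featureCounts (Subread 2.0.6) and the build hg38. The sources used here do not say which annotation was counted, whether strand was used or how multi-mapping reads were treated. Among the members' nonzero values 29% were not whole (within 0.005), against 18.9% over all genes, so some reads were divided between genes. Annotated members overlap an antisense gene in 9 cases and a sense gene in 6 (H3C12 and H2AC17 overlap each other), and without the strand setting their reads cannot be told apart.

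Counts were rounded to whole numbers and each experiment was fitted on its own in edgeR 4.0.16 under R 4.3.3. Genes were filtered by filterByExpr, libraries scaled by TMM, and groups given 1 coefficient each, with 2-sided quasi-likelihood F tests, adjusted by Benjamini and Hochberg over all tested genes of a contrast. Calls are at adjusted p under 0.05. A fit of both knockdown experiments (22890 genes) served to compare the knockdown effects, and a fit of untreated and control libraries (29425 genes) to compare the ratios. CPM are counts per TMM-scaled library size, log2 changes carry the standard error from the fit, and the method was tested on simulated counts. Libraries under 100000 counts were left out. Total counts, in units of 1000000, were 2.54 to 4.35 in untreated neurites, 5.21 to 10.52 in untreated soma, 6.26 to 19.42 in the hnRNPA1 and 6.83 to 28.9 in the TDP-43 experiment. The 52 libraries were grouped by their titles. No replicate pair counted as 1 library, since every pair within a group differed by at least 1.91 in chi-square per degree of freedom.

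Alternatives were DESeq2 1.42.0, its size factors (RLE), plain library sizes, no filter, a replicate block, each library left out, and, added after the data were seen, library sizes without 7SL genes and the 7SL share as a covariate. Correlations of same-numbered samples' deviations ran from -0.195 to 0.35, and in no comparison of groups were all over 0.1, so the samples were not treated as pairs. The rule for naming took the 2 most abundant members of each family, up to 4 called members per contrast and direction, and up to 3 called genes of each related list with SLBP, NPAT, LSM10, LSM11, MKI67 and the targets. The members and lists were chosen with earlier results of these data known. Gene types came from GENCODE 29 for 65 members and RefSeq for 4. The values of 1 gene of the related lists are not reported here.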

Additional observations from a re-analysis of the deposited data

Results flagged for a closer look

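In 160 sets of values from 4 to 6 libraries of a group, 11 held a highest or lowest library far from the others, where chance flags about 1 in 20. Untreated soma sample 7 was high for H2AC20 (22.21 CPM). In the hnRNPA1 experiment the values were 6.719 CPM of H3C14 in control soma 1, 48.8 summed over H3 genes in knockdown soma 2, 136.1 of H2AC8 and 27.11 of H2BC21 in knockdown soma 3, and 50.94 of H2AC20 and 86.49 of H4C5 in knockdown neurite 1. In the TDP-43 experiment they were 87.22 CPM of H4C5 in knockdown soma 1, 3.54 of H1-2 in knockdown neurite 3, and 22.6 summed over H3 genes and 64.26 of H2AC20 in knockdown neurite 5.

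Other results differed between groups under the same contrast by edgeR's test of the difference. The TDP-43 change differed between fractions by 0.93 on the log2 scale for H3C15 and by -0.71 for H4C8. The soma change after TDP-43 less that after hnRNPA1 knockdown was -1.05 for H2AC14, -0.91 for H4C2, -0.9 for H3C1 and -0.88 for H3C7. In neurites it was -1.64 for H4C11, -1.47 for H3C10, -1.46 for H4C12 and -1.45 for H2AC4.

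The log2 neurite to soma ratio of untreated cells less that of hnRNPA1 controls was 1.08 for H4C2, -0.97 for H4C14, -0.96 for H1-4, -0.77 for H2BC6 and -0.75 for H4C16. Against TDP-43 controls it was -1.66 for H4C15, -1.42 for H2AC18 and -1.33 for H1-4. The median of all genes was -0.41 against hnRNPA1 and -0.48 against TDP-43 controls. The fitted values of 3.26 for H3C2, 2.38 for H3C7 and 2.15 for H1-5 against hnRNPA1 controls, and of 1.51 for H3C7 against TDP-43 controls, rest on 0 to 7 counts in each untreated library. These 3 genes did not pass the filter in untreated cells, so no direction is read from them. The fitted value of H4C6 against TDP-43 controls was -4.63, but that gene had 0 counts in every TDP-43 control soma library, so its size depends on the prior count and is no bound. The untreated libraries were made with the other kit version, which cannot be told apart from the experiment.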

How the results depend on the processing

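Numbers are members called higher, then lower. Plain library sizes gave, for neurites against soma, 0 and 24 (untreated), 0 and 36 (hnRNPA1 controls) and 8 and 15 (TDP-43 controls). They gave 3 and 1 after hnRNPA1 knockdown in soma, 8 and 1 in neurites, 0 and 9 after TDP-43 knockdown in soma, and 19 lower in its neurites. They gave 6 lower for the difference between knockdowns in soma, 1 and 18 in neurites, 2 and 16 for the ratio against hnRNPA1 controls and 0 higher against TDP-43 controls. With DESeq2, 3 were lower in untreated neurites, 0 higher after TDP-43 knockdown in soma, 2 lower for the ratio against hnRNPA1 and 2 higher against TDP-43 controls; RLE scaling gave the same 2 and 2 for the ratios. Without the filter 3 were lower in untreated neurites, 3 higher and 1 lower in hnRNPA1 and TDP-43 control neurites, 1 higher in the hnRNPA1 interaction, 0 higher after TDP-43 knockdown in soma, 7 lower in the TDP-43 interaction and 0 higher for the ratio against TDP-43 controls. A replicate block was set by experiment and sample number, so in the knockdown experiments control and knockdown libraries with the same number shared it. With this block 3 were higher in hnRNPA1 control neurites, 0 after TDP-43 knockdown in soma and 1 in neurites, and 2 lower in the TDP-43 interaction. Soma and neurite libraries of an arm carry the same sample numbers in their titles, which do not state a pairing. A block of the fractions within each arm was not fitted in the knockdown experiments. In TDP-43 knockdown neurites against soma all 4 samples correlated best with their own number, as did 0 to 2 samples in the other comparisons.

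Library sizes without 7SL genes gave 0 and 23 in untreated neurites, 0 higher in hnRNPA1 control neurites, 1 lower after hnRNPA1 knockdown in soma, 2 lower in TDP-43 control neurites, 13 lower in the TDP-43 interaction, 2 and 18 for the ratio against hnRNPA1 and 0 and 35 against TDP-43 controls. The 7SL covariate gave 2 higher in untreated neurites, 0 in hnRNPA1 control neurites, 0 after hnRNPA1 knockdown in soma and 4 in neurites, 1 and 10 in TDP-43 control neurites, 0 higher after TDP-43 knockdown in soma, 3 lower in neurites, 0 and 0 in the TDP-43 interaction, 4 lower for the difference in neurites and 6 and 6 for the ratio against TDP-43 controls. Of counts without 7SL genes the members were 0.109% and 0.122% in hnRNPA1 control and knockdown neurites and 0.16% and 0.104% in those of TDP-43.

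Single members changed sign for neurites against soma: H2AC21 in untreated cells (-0.06 with library sizes, -0.05 without 7SL genes), in hnRNPA1 controls H2BC12 (-0.07 with library sizes, -0.47 with the covariate), H2AC8 (-0.08 and -0.42), H2AC20 (-0.09 with library sizes) and H2BC14 (-0.25 with the covariate), and in TDP-43 controls H3C10 (-0.39 with the covariate). The cause was not tested. Of 420 values of single members, these included, 340 kept direction and call, and of 867 with a library left out 775 did.

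With each library left out, counts were 6 to 9 higher and 2 to 7 lower in untreated neurites, 2 to 9 and 16 to 20 in hnRNPA1 controls, 34 to 37 and 0 to 1 in TDP-43 controls, 1 to 10 and 0 to 1 after hnRNPA1 knockdown in soma, and 9 to 17 and 0 to 0 in neurites. They were 0 to 1 and 6 to 19 after TDP-43 knockdown in soma, 0 to 2 and 17 to 34 in neurites, 0 to 1 and 1 to 6 in its interaction, 0 to 0 and 3 to 20 for the difference in soma, 0 to 1 and 16 to 30 in neurites, 5 to 8 and 4 to 8 for the ratio against hnRNPA1 and 0 to 1 and 11 to 18 against TDP-43 controls. Depth limits the H3 genes and the 14 members that passed the filter in no experiment fitted singly.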
